A study of Mus musculus with 6 samples.

Results

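The genes described here encode the core of the basement membrane: the laminin chains Lama1, Lama5, Lamb1, Lamb2 and Lamc1, the type IV collagen chains Col4a1 and Col4a2, the nidogens Nid1 and Nid2, and the heparan sulfate proteoglycan perlecan (Hspg2). They were chosen by symbol, 10 genes among 52870 rows with a gene identifier, and each was found once in the GENCODE M21 annotation of GRCm38. Transcript levels were measured by RNA sequencing of mouse embryonic stem cells, the pluripotent cells grown from the early embryo, of strain C57BL/6. 3 libraries came from Rbbp4F/F cells, which carry the F allele and serve as the control, and 3 from Rbbp4-/- cells, called the knockout here. No agent, dose or time is given for either group. Which exons are deleted, how the F allele was removed, and whether replicate libraries are separate cultures or clones is not in the labels. The p-values therefore measure the spread between the sequenced libraries alone, which may be technical. The comparison asks how transcript levels differ between Rbbp4F/F and Rbbp4-/- stem cells. Rbbp4 encodes a histone-binding subunit of several chromatin complexes.

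Basement membranes are thin sheets of extracellular matrix under epithelia. Laminins are secreted as trimers of an alpha, a beta and a gamma chain and polymerise at the cell surface, where integrins and dystroglycan bind them. Type IV collagen forms a second network, and nidogens and perlecan link the networks. In the early mouse embryo the trimer of the alpha 1, beta 1 and gamma 1 chains is the major laminin of the first basement membranes, and the alpha 5 chain is a laminin of many epithelia and a well-known substrate for stem cells in culture.

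Col4a1 and Col4a2 lie head to head on chromosome 8, and the RefSeq start sites (GRCm38.p6) place their 5′ ends across each other. The stretch between the start sites, chr8:11312805-11312826, is 22 bases long and lies in the first exon of both genes. It is shown on the strand of each gene because both genes rose, with matches to the GC box (GGGCGG, or CCGCCC on the other strand) in capitals:
Col4a2, plus strand: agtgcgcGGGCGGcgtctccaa
Col4a1, minus strand: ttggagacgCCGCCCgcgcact

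Upstream sequence is shown for Lama5, the alpha chain that rose, and for Lamb1 and Lamb2, beta chains whose ratio did not overlap between the groups. RefSeq held start sites for 7 of the 10 genes. Each stretch starts 250 bases before the RefSeq start site and ends there or at the first annotated exon, with GC box matches in capitals:
Lama5, chr2:180225860-180226109, minus strand: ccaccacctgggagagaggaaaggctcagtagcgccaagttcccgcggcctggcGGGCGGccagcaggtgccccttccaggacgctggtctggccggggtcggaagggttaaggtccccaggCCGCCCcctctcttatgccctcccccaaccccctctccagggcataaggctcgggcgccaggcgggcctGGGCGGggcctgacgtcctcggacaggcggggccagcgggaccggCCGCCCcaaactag
Lamb1, chr12:31265043-31265233, plus strand: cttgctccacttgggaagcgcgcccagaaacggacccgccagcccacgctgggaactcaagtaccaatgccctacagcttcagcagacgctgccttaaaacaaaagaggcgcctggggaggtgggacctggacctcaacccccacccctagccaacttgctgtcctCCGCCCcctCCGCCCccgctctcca
Lamb2, chr9:108479612-108479735, plus strand: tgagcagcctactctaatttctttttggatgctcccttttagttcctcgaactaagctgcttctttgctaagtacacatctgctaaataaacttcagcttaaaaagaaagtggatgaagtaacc

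In the full 250 bases, searched on both strands, the GC box matched 4 times in Lama5, 5 times in Hspg2, 2 times each in Lamb1 and Col4a2, and 1 time in Nid1. It did not match in Lamb2 or Col4a1. The Col4a1 window lies wholly in exons of Col4a2, and the Col4a2 window wholly in exons of Col4a1. The match in the stretch between their start sites lies outside both windows. At least 1 match occurred in 32.7% of all 32851 RefSeq promoter windows of this length, and at least 4 matches in 4.09%. The window held 72.4% G or C in Lama5, 62% in Lamb1 and 43.6% in Lamb2, against a median of 52.4% over all windows. These matches describe the letters only, and no binding was measured.

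Levels are given in FPKM, which corrects fragment numbers for the length of the transcript and the size of the library, so levels of different genes can be compared. From the spacing of low values, a library held an estimated 25900000 to 28300000 fragments. Rbbp4 itself was at 57.0 to 61.8 FPKM with the F allele and at 11.1 to 21.3 FPKM in the knockout (log2 change −1.96, SE 0.22, limma adjusted p = 3.94e-04). Signal for Rbbp4 thus remained in the libraries labelled knockout, where its mean was above that of 55.1% of tested genes. Without the deleted exons this level does not show whether the remaining RNA is intact. Antisense exons of Sync and Gm26722 cover 8.9% and 9.1% of the exonic length of Rbbp4, and reads there cannot be told apart without strand. Knockout replicate 1 had the highest Rbbp4 level of its group and lay apart from the other two in principal component analysis (second component 36, the others −7 and −24.2). Over all genes tested, 4978 were called higher and 3051 lower, against 3630 and 4205 when libraries were scaled by median ratios, 3989 and 3866 by upper quartiles, 6080 and 2380 with equal FPKM sums and 5785 and 2530 with totals that leave out the 20 most abundant genes. The median log2 fold change of all genes tested, 0.17 with the deposited values, was −0.04, 0.02, 0.31 and 0.28 in these scalings.

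All 10 basement membrane genes were above 1 FPKM in every library and all were tested. 5 rose in the knockout libraries (Col4a1, Col4a2, Lama5, Lamb2 and Hspg2), 3 fell (Lama1, Lamc1 and Nid2) and 2 were not called (Lamb1 and Nid1). A gene was called where the limma p, adjusted by the Benjamini-Hochberg method over 13579 genes, was below 0.05. That threshold called 59.1% of all genes tested, 36.7% as higher and 22.5% as lower, so 8 called genes of 10 is a share read against a broad background. The groups did not overlap in 9 of the 10 genes, with the knockout above in 5 and below in 4. Of all genes tested 66.8% had such groups, 41.3% with the knockout above and 25.5% with it below. The median log2 fold change of the 10 genes was 0.18, beside 0.17 for all genes tested. In bulk RNA, fewer cells that express a gene and less RNA of it per cell cannot be told apart.

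**Figure D1:**
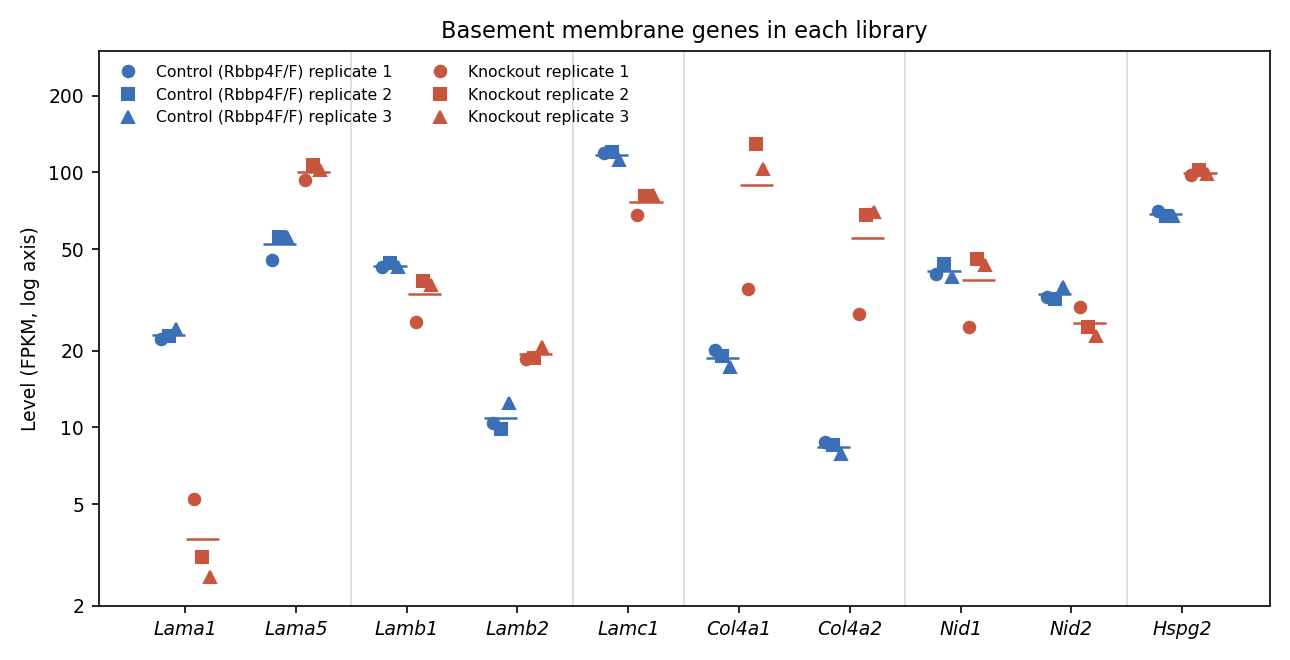
Level of each basement membrane gene in FPKM (log axis) in the 3 control libraries (blue) and the 3 knockout libraries (red), with a line at each group mean; marker shapes give the replicate. The groups overlap for Nid1, and knockout replicate 1 (red circle) lies apart from the other knockout libraries for Col4a1, Col4a2, Lamb1 and Nid1.

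The type IV collagen chains had the largest increases of the 10 genes. They form the trimer, richer in the alpha 1 chain, that makes up the type IV collagen network of most basement membranes. Col4a1 (ENSMUSG00000031502, chromosome 8, 11198423 to 11312826, minus strand) had 20.1, 19.1 and 17.2 FPKM in control replicates 1 to 3 and 35.0, 129 and 103 FPKM in knockout replicates 1 to 3. Every knockout library was above every control, and replicate 1 was far below the other knockout libraries. The mean rose from 18.8 ± 1.48 to 89.0 ± 48.5 FPKM (SD, n = 3 each), 4.73-fold, with a log2 fold change of 1.99 on the log2(FPKM + 1) scale (SE 0.44, limma adjusted p = 0.00723). Without knockout replicate 1 the log2 fold change of Col4a1 was 2.56.

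Col4a2 (ENSMUSG00000031503, chromosome 8, 11312805 to 11449287, plus strand) had 8.74, 8.53 and 7.86 FPKM in the control libraries and 27.8, 68.4 and 69.7 FPKM in the knockout libraries. The groups were wide apart and replicate 1 was again the lowest knockout library. The mean rose from 8.38 ± 0.460 to 55.3 ± 23.8 FPKM, 6.60-fold (log2 change 2.47, SE 0.33, limma adjusted p = 8.77e-04). In the controls 45.4% of tested genes had a lower mean than Col4a2, and in the knockout libraries 83.7%. For Col4a1 the shares were 64.2% and 90.1%. The 2 genes overlap by the 22 bases shown above, 0.3% of the exonic length of each.

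The ratio of Col4a1 to Col4a2, which does not depend on the scaling between libraries, was 2.30, 2.23 and 2.19 in the controls and 1.261, 1.89 and 1.48 in the knockout libraries. The ratios did not overlap, and their log2 mean was lower by 0.56 in the knockout libraries, that is −0.56 (knockout minus control). The exact two-sided permutation p was 0.10, the smallest that 3 against 3 libraries can give, and 0.15 after Benjamini-Hochberg adjustment over the 6 ratios computed, 4 of which are reported. The other type IV collagen chains, Col4a3 to Col4a6, were under the filter and not tested, with at most 0.63 FPKM in any library. At these low values each had every knockout library above every control, as 41.3% of all genes tested did.

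Among the alpha chains, which carry the cell-binding domains of the laminins, the 2 genes moved in opposite directions. Lama1 (ENSMUSG00000032796, chromosome 17, 67697259 to 67822647, plus strand), the alpha chain of the embryonic laminin, had 22.3, 22.9 and 24.2 FPKM in the control libraries and 5.26, 3.10 and 2.59 FPKM in the knockout libraries. The knockout libraries were all far below the controls, with replicate 1 the highest of them. Its mean was 6.34-fold lower in the knockout libraries (log2 change −2.42, SE 0.21, limma adjusted p = 1.46e-04). The lowest of these values still rested on about 600 fragments, so counting error was small beside the spread between libraries.

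Lama5 (ENSMUSG00000015647, chromosome 2, 180176373 to 180225859, minus strand) had 45.2, 55.8 and 55.9 FPKM in the control libraries and 93.0, 107 and 103 FPKM in the knockout libraries. The groups did not overlap and the knockout libraries lay close together. The mean rose from 52.3 ± 6.14 to 100.8 ± 7.10 FPKM, 1.93-fold (log2 change 0.94, SE 0.11, limma adjusted p = 4.39e-04).

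Within each library, Lama1 made up 27.5%, 24.7% and 25.7% of the summed FPKM of the 5 alpha chain genes in the controls and 4.87%, 2.62% and 2.25% in the knockout libraries. Lama5 made up 58.4 ± 2.45% in the controls and 88.5 ± 2.24% in the knockout libraries. The ratio of Lama1 to Lama5 was 0.494, 0.410 and 0.434 in the controls and 0.0566, 0.0290 and 0.0253 in the knockout libraries, a 12.8-fold difference in geometric means (exact permutation p = 0.10, adjusted 0.15). Lama3, the alpha chain of an epithelial laminin, fell from 12.9 ± 0.325 to 8.57 ± 0.797 FPKM (limma adjusted p = 0.00447). Lama2 and Lama4 had at most 1.10 FPKM in any library.

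**Figure D2:**
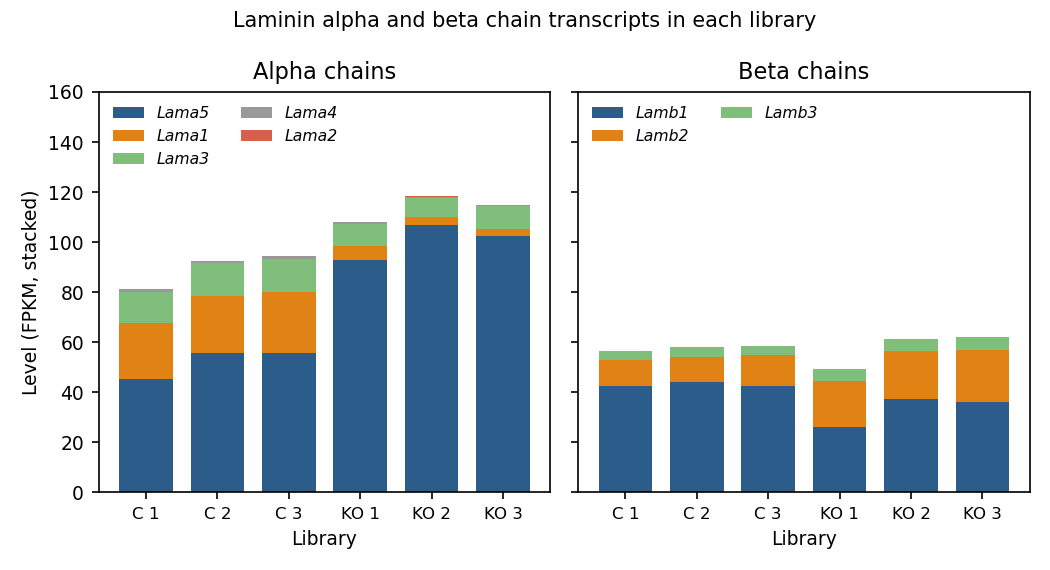
Stacked FPKM of the alpha and beta chain genes of laminin in each library (C, control; KO, knockout; numbers are replicates), on a common linear axis from 0. Lama5 and Lamb2 take a larger part of their bars in the knockout libraries, and Lama1 and Lamb1 a smaller part.

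Of the beta chains, Lamb2 rose and Lamb1 was not called. Lamb2 (ENSMUSG00000052911, chromosome 9, 108479736 to 108490530, plus strand), a chain of laminins at the neuromuscular junction and the kidney filter, had 10.4, 9.88 and 12.5 FPKM in the control libraries and 18.6, 18.8 and 20.7 FPKM in the knockout libraries. The groups did not overlap, and the mean was 1.77-fold higher (log2 change 0.78, SE 0.12, limma adjusted p = 0.00131). Lamb1 (ENSMUSG00000002900, chromosome 12, 31265234 to 31329644, plus strand), the beta chain of the embryonic laminin, had 42.4, 44.0 and 42.6 FPKM in the control libraries and 26.0, 37.5 and 36.2 FPKM in the knockout libraries.

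Every knockout library was below every control for Lamb1, and replicate 1 was the lowest. The log2 fold change was −0.38 with a 95% interval of −0.72 to −0.04, and the limma adjusted p of 0.0530 was just above the threshold. Without knockout replicate 1 the log2 fold change of Lamb1 was smaller, at −0.22, but it was called (limma adjusted p = 0.0176). Lamb1 was also called without knockout replicate 2 (0.0447), with median-ratio scaling (0.01), upper-quartile scaling (0.0173) and a filter of 5 FPKM (0.0491). The limma adjusted p of the alternatives lay between 0.01 and 0.251. The ratio of Lamb1 to Lamb2 was 4.08, 4.46 and 3.41 in the controls and 1.40, 1.995 and 1.75 in the knockout libraries, without overlap (exact permutation p = 0.10, adjusted 0.15). Lamb3 had 3.81 ± 0.403 and 4.87 ± 0.176 FPKM (limma adjusted p = 0.0792).

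Lamc1 (ENSMUSG00000026478, chromosome 1, 153218922 to 153332786, minus strand), the gamma chain shared by most laminins and the one that nidogen binds, fell. It had 119, 121 and 112 FPKM in the controls, the highest level of the 10 genes there, and 67.8, 80.5 and 81.7 FPKM in the knockout libraries. The groups did not overlap, and the mean went from 117 ± 4.57 to 76.7 ± 7.69 FPKM (log2 change −0.61, SE 0.09, limma adjusted p = 0.00137).

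The nidogens and perlecan connect the laminin and collagen networks. Nid1 (ENSMUSG00000005397, chromosome 13, 13437551 to 13512269, plus strand) had 40.1, 43.8 and 39.0 FPKM in the control libraries and 24.7, 45.7 and 43.4 FPKM in the knockout libraries. Replicate 1 was below all controls, while the other knockout libraries were at the level of the controls or above it. The log2 fold change of Nid1 was −0.16 with a 95% interval of −0.68 to 0.37 (limma adjusted p = 0.570), and without knockout replicate 1 it was 0.12 (limma adjusted p = 0.198).

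Nid2 (ENSMUSG00000021806, chromosome 14, 19751265 to 19811787, plus strand) had 32.3, 31.9 and 35.5 FPKM in the control libraries and 29.7, 24.8 and 22.9 FPKM in the knockout libraries. The groups did not overlap but were close, and the log2 fold change was −0.36 (SE 0.11, limma adjusted p = 0.0293). The call was lost without control replicate 1 (limma adjusted p = 0.0721), 2 (0.0622) or 3 (0.0968), without knockout replicate 2 (0.0909) or 3 (0.0796), with equal FPKM sums (0.115), with totals that leave out the most abundant genes (0.0730) and with no filter (0.0516). The lowest value of any alternative was 0.00353 and the highest 0.115. Exons of the antisense gene Rtraf, at 156 ± 8.10 and 127 ± 3.69 FPKM, overlap 8.4% of the exonic length of Nid2, and reads there cannot be told apart without strand. The ratio of Nid1 to Nid2 overlapped between the groups, at 1.24, 1.37 and 1.10 against 0.831, 1.84 and 1.90 (exact permutation p = 0.60, adjusted 0.70).

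Hspg2 (ENSMUSG00000028763, chromosome 4, 137468769 to 137570630, plus strand), which encodes perlecan, had 70.9, 67.6 and 67.6 FPKM in the control libraries and 97.6, 102 and 98.4 FPKM in the knockout libraries. It had the smallest standard error of the 10 genes, and the groups were well separated. The mean rose 1.45-fold (log2 change 0.53, SE 0.07, limma adjusted p = 6.07e-04).

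**Figure D3:**
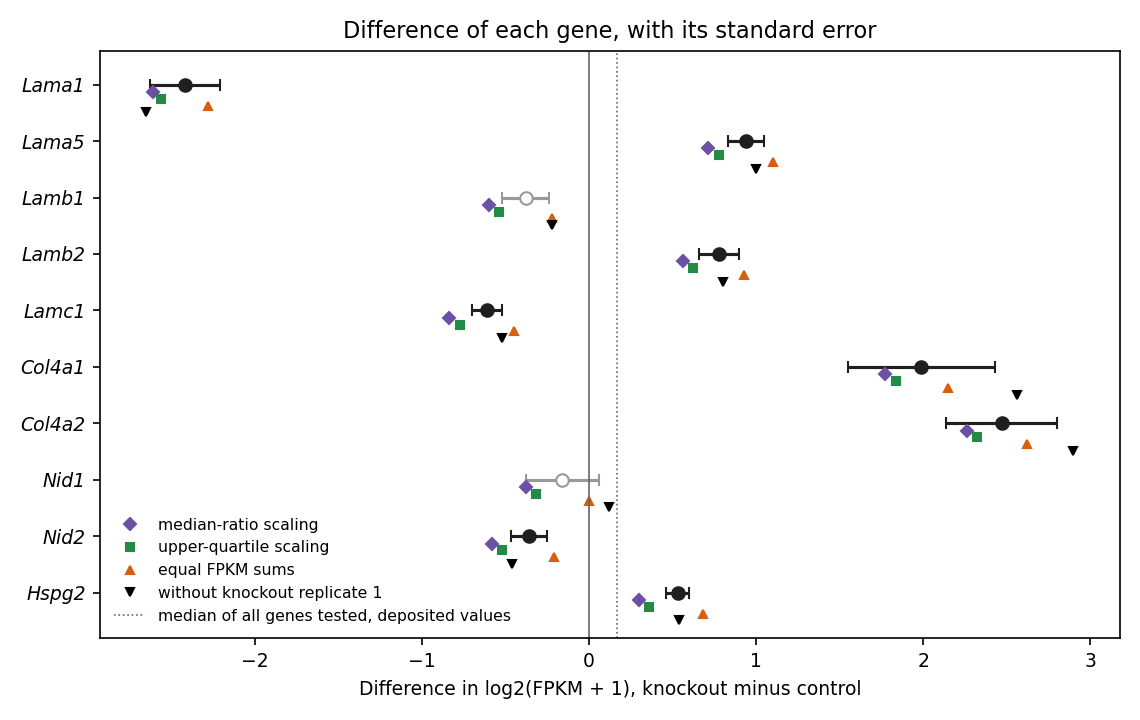
Difference in log2(FPKM + 1), knockout minus control, for each gene (circle with its standard error; filled where the adjusted p was below 0.05), with the difference under 3 other scalings and without knockout replicate 1. Col4a1, Col4a2, Lama5, Lamb2 and Hspg2 stay to the right of 0 and Lama1, Lamb1, Lamc1 and Nid2 to the left, while Nid1 changes side.

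The order of the levels differed between the groups. In the controls it ran from Lamc1 over Hspg2, Lama5, Lamb1, Nid1, Nid2, Lama1, Col4a1 and Lamb2 to Col4a2, and among neighbours only Lamb1 and Nid1 had overlapping ranges. In the knockout libraries it ran from Lama5 over Hspg2, Col4a1, Lamc1, Col4a2, Nid1, Lamb1, Nid2 and Lamb2 to Lama1, and each neighbour overlapped the next from Lama5 down to Nid2. The summed FPKM of the 10 genes was 411, 424 and 414 in the controls and 425, 617 and 581 in the knockout libraries, so knockout replicate 1 was close to the controls in this sum.

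Knockout replicate 1 did not stand on the same side for all genes. It was the knockout library nearest to the control mean for 7 genes, among them Lama1, Col4a1 and Col4a2, and the one farthest from it for 3, which were Lamb1, Lamc1 and Nid1. The part of this library's higher Rbbp4 level in these differences was not tested.

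As a description, 12212 tested protein-coding genes were searched for log2 levels that followed Col4a2 or Lama1 over the 6 libraries. The highest correlations of so many are given here. Those closest to Col4a2 were Bcor (Pearson r = 0.9998), Rbm12b2 (0.9996) and Serpinb9b (0.9994). Those closest to Lama1 were Ptov1 (0.9998), 1700019D03Rik (0.9998) and Upp1 (0.9997). All 6 libraries share the 2-group structure, which sets most of such a correlation.

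Other genes of the pathway were counted in lists. Each count is read beside the 36.7% of all genes tested that were called higher and the 22.5% called lower. Of 20 other basement membrane components 12 were tested, 3 rose and 4 fell, with a median log2 fold change of 0.09. 1 of the 3, Ntn4, passed the filter through the knockout libraries alone. Tinagl1, a laminin-binding matrix glycoprotein gene, rose from 7.83 ± 1.15 to 73.3 ± 19.5 FPKM (log2 change 3.04, limma adjusted p = 7.73e-05). Fbln1, the gene of a laminin- and nidogen-binding fibulin, fell from 29.6 ± 2.65 to 5.69 ± 0.719 FPKM (log2 change −2.19, limma adjusted p = 4.27e-05), and Col18a1, the gene of the collagen that yields endostatin, fell from 107.5 ± 3.88 to 35.9 ± 5.58 FPKM (limma adjusted p = 1.01e-04). With equal FPKM sums 5 rose.

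Of 19 genes for collagen folding, modification and export 18 were tested, 8 rose and 6 fell (median 0.26). Of all genes tested 36.7% rose and 22.5% fell, so these counts do not set the list apart. With median-ratio or upper-quartile scaling 5 rose. 1 of the 8, P3h2, passed the filter through the knockout libraries alone. The collagen chaperone gene Fkbp10 rose from 16.4 ± 2.71 to 51.6 ± 2.32 FPKM (limma adjusted p = 1.05e-04). The lysyl hydroxylase gene Plod1 fell from 50.98 ± 2.54 to 28.2 ± 1.85 FPKM (limma adjusted p = 2.80e-04), and Ppib, the gene of the prolyl isomerase cyclophilin B, from 272 ± 12.4 to 129.7 ± 6.85 FPKM (limma adjusted p = 7.26e-05). Antisense exons of Snx22 cover 25% of Ppib.

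Of 16 genes for receptors and their cytoplasmic linkers 14 were tested, 10 rose and 2 fell, with a median of 0.71. Itga3, the alpha subunit of a laminin-binding integrin, rose from 39.5 ± 6.20 to 181 ± 19.9 FPKM (log2 change 2.18, limma adjusted p = 5.74e-05). Parva, a linker gene, rose from 2.97 ± 0.193 to 17.9 ± 1.92 FPKM (limma adjusted p = 4.23e-05). Ilk, the gene of integrin-linked kinase, rose from 31.9 ± 2.07 to 139 ± 13.4 FPKM (limma adjusted p = 2.80e-05), but antisense exons of Taf10 cover 76.7% of Ilk. The number that rose was 7 with median-ratio scaling, 7 without control replicate 1 and 12 without knockout replicate 1. The number that fell dropped to 1 when control replicate 1, control replicate 2, knockout replicate 2 or knockout replicate 3 was left out.

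Of 8 dystroglycan glycosylation genes, all tested, 2 rose and 0 fell in limma, where 4 were higher and 0 lower at an unadjusted p under 0.05 (median 0.23). Over all genes tested 39.6% were higher and 24.5% lower at that unadjusted threshold, so this count is near the background. With equal FPKM sums 4 rose, and with median-ratio scaling 0 rose and 1 fell. Pomgnt1 and Pomt2, which encode glycosyltransferases of dystroglycan, rose with log2 fold changes of 0.50 and 0.56 (limma adjusted p = 0.00600 and 0.0121). Median-ratio scaling ended both calls (limma adjusted p = 0.0680 and 0.0552), and leaving out knockout replicate 2 ended that of Pomt2 (0.0521). Of 13 genes of proteolysis and its inhibitors 12 were tested, 9 rose and 1 fell (median 1.07). Bmp1, the procollagen C-proteinase gene, rose from 4.07 ± 0.360 to 26.9 ± 5.39 FPKM (limma adjusted p = 6.88e-05), while Mmp2, a gelatinase gene, fell from 14.7 ± 2.98 to 2.74 ± 1.05 FPKM (limma adjusted p = 3.88e-04). Plat rose from 0.273 ± 0.0635 to 2.07 ± 0.324 FPKM and passed the filter through the knockout libraries alone, as 1 other gene of this list did.

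**Figure D4:**
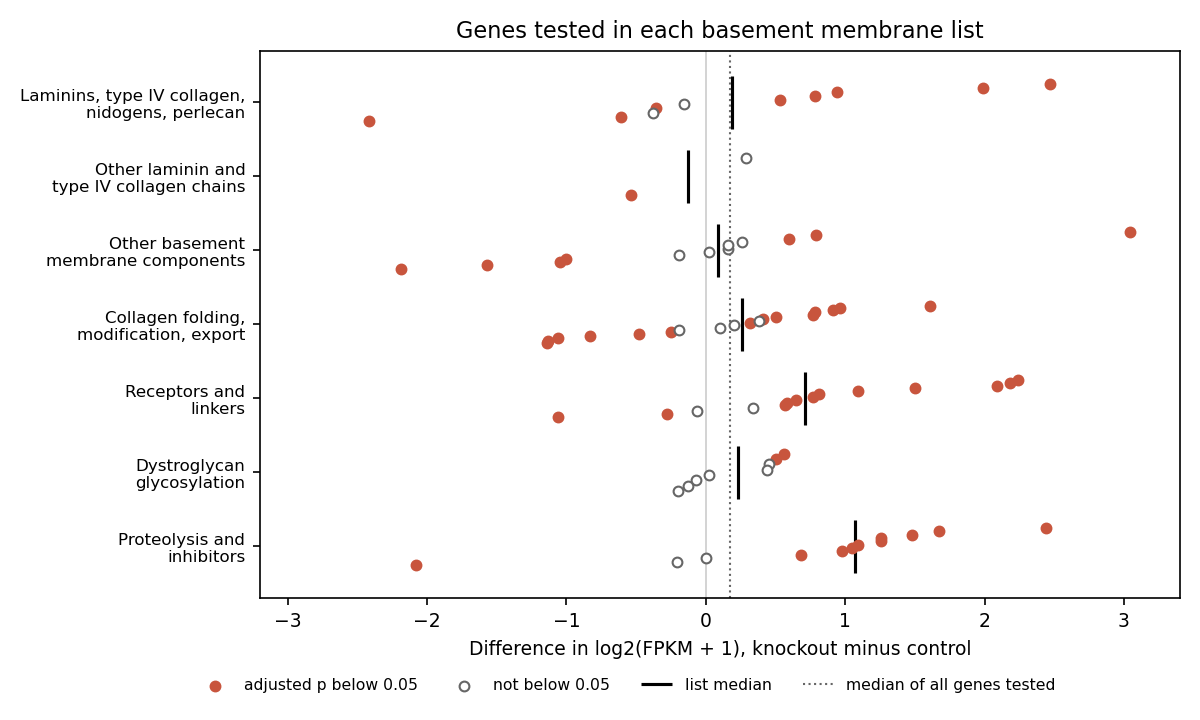
Difference in log2(FPKM + 1), knockout minus control, of each tested gene of 7 basement membrane lists, filled where the adjusted p was below 0.05. Black bars are list medians and the dotted line is the median of all genes tested, 0.17.

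Markers of other cell types also differed between the groups. Of all genes tested 36.7% were called higher and 22.5% lower, and 41.3% had every knockout library above every control. Of 13 trophoblast markers 12 were tested, 11 rose and 0 fell, and all 13 were higher in every knockout library than in every control. Their summed level was 139 to 200.5 FPKM in the control libraries and 2269 to 4055 FPKM in the knockout libraries. Most of the latter came from 2 keratin genes, Krt8 (1586 ± 478 FPKM in the knockout libraries) and Krt18 (1575 ± 437 FPKM). The sum thus mainly follows these 2 genes. The next highest marker in the knockout libraries, Hand1, rose from 6.84 ± 1.27 to 68.1 ± 28.4 FPKM. Gata2 rose from 1.93 ± 0.379 to 12.3 ± 1.64 FPKM. Cdx2, Gata3 and Plac1 passed the filter through the knockout libraries alone, and Cdx2 was listed at 0 in control replicate 1. Of 16 markers of primitive and parietal endoderm, cells that secrete abundant type IV collagen and Lama1, 7 were tested. 5 rose, and 3 did so without knockout replicate 2. Gata4 and Fst passed the filter with no control library at 1 FPKM. Sox17, Dab2 and Pth1r reached 1 FPKM in every knockout library but not in every control, so they too needed the knockout libraries to pass. Of the markers called higher only Lrp2 was above 1 FPKM in every control. The sum of the 16 markers was 10.9 to 12.4 FPKM in the control libraries and 34.6 to 39.3 FPKM in the knockout libraries. Lrp2 alone had 14.3 to 20.3 FPKM of the latter. In 10 of the 16 every knockout library was above every control and in 0 below, but 9 of the 16 were under the filter. Sox17 and Amn were not called, and Amn, Srgn and Stra6 had a lower mean in the knockout libraries. Lrp2 rose from 2.27 ± 0.334 to 18.2 ± 3.39 FPKM, Gata4 from 0.580 ± 0.104 to 3.31 ± 0.709 FPKM and Fst from 0.790 ± 0.1 to 2.82 ± 0.556 FPKM, while Hnf4a was listed at 0 in all 6 libraries. The part of these cell types in the collagen and laminin values was not tested.

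Of 12 fibroblast markers 2 were tested. Thy1, which fell from 14.8 ± 3.15 to 7.68 ± 0.382 FPKM, made up most of the sum of 13.9 to 20.3 FPKM in the control libraries and 11.0 to 12.3 FPKM in the knockout libraries. Col6a1 rose from 0.740 ± 0.0872 to 1.25 ± 0.112 FPKM (limma adjusted p = 0.0410), a call lost without any of the control libraries (0.0922 to 0.13) and without knockout replicate 2 (0.101) or 3 (0.127), and it passed the filter through the knockout libraries alone. In 7 of the 12 every knockout library was above every control, and in 1, Thy1, below. Of all genes tested 41.3% and 25.5% had such groups, but of the 7 only Col6a1 was among the genes tested. The 7 were low, among them Col3a1 (0.0400 ± 0.0361 and 0.403 ± 0.1 FPKM), Dcn (0.213 ± 0.137 and 0.727 ± 0.22 FPKM) and Col1a2 (0.11 ± 0.04 and 0.23 ± 0.0458 FPKM), while Col1a1 overlapped between the groups and Fap was listed at 0 throughout. The part of fibroblasts in the collagen and laminin values was not tested. Of 10 stem cell markers 9 fell and 0 rose, where 22.5% of all genes tested were called lower and 36.7% higher. Zfp42 was not called, at 35.1 ± 2.34 and 31.95 ± 2.57 FPKM (limma adjusted p = 0.261). The 3 called markers with the smallest p are given next. Nanog fell from 79.2 ± 5.31 to 4.31 ± 0.641 FPKM, Tdgf1 from 437 ± 20.7 to 72.4 ± 4.11 FPKM and Fgf4 from 107 ± 9.32 to 14.4 ± 1.36 FPKM. The annotation holds pseudogene copies of Krt8, Nanog and Tdgf1, and how reads were shared between copies is not stated. The summed level of the stem cell markers was 5518 to 5796 FPKM in the control libraries and 1649 to 2392 FPKM in the knockout libraries.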

How the data were processed

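RNA sequencing values of 6 libraries were used, 3 per group as their titles give it. The deposited files hold a gene identifier and an FPKM value, a unit taken from the values: they are not whole numbers and sum to 697933 to 800146 per library. Per the submitters' processing notes, FastQC, HISAT2 2.1.0, RSEM, DESeq 1.26.0 and GRCm38.p6 were used, without roles. Which annotation release was used, and whether reads were counted by strand, is not given in the sources used here. 2 rows per file without an identifier were left out. Symbols came from GENCODE M21, which matched 51719 of 51912 Ensembl identifiers.

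The filter kept genes that reached 1 FPKM in 3 or more libraries. Their log2(FPKM + 1) values were compared by limma 3.58.1 (R 4.3.3; two-sided, moderated variances with a mean trend), which was first run on simulated data. Few genes changed in the simulation, unlike in these libraries, so it does not give the error rate here. Fold changes on this scale understate the change of low genes. No count model was used. Depth came from the spacing of low values, 85.2% to 88.3% of which lay within 0.15 of a whole step. Genes named beyond the 10 were up to 3 called genes per list with the smallest p, other laminin chains with a mean of at least 1 FPKM, and the closest correlates of 2 genes. Others, among them Col4a3 to Col4a6, Lama2, Lama4, Ntn4, P3h2, Cdx2, Gata3, Plac1, Hnf4a, Col3a1, Dcn, Col1a1, Col1a2, Fap and Rtraf, were named after their values were seen. So were Sox17, Dab2, Pth1r, Amn, Srgn, Stra6, Hand1, Sdc1, Ddr1 and Zfp42. The genes and lists were chosen with earlier results of these data known. Alternatives were 4 scalings, a pseudocount of 0.1, no filter, a filter of 5 FPKM, a replicate block and each library left out in turn. Some genes are not reported here and were left out of the lists, as were 2 of the 6 ratios.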

Additional observations from a re-analysis of the deposited data

How the results depend on the processing

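The calls of Col4a1, Col4a2, Lama5, Lamb2, Hspg2, Lama1, Lamc1 and Rbbp4 kept their direction and stayed below 0.05 in all 14 alternatives, and the number of basement membrane genes called higher was 5 in each. The number called lower was 3 with the deposited values and 2 to 4 over the alternatives, as Lamb1 and Nid2 crossed the threshold. Leaving out knockout replicate 1 turned the uncalled Nid1 difference to 0.12 (range −0.31 to 0.12 when each library was left out). The cause was not tested.

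Same-numbered control and knockout libraries did not deviate together (correlations 0, −0.01 and 0.05 for replicates 1 to 3), so the number was not used as a pairing. With a replicate block 5 basement membrane genes were higher and 3 lower, with Lamb1 called (limma adjusted p = 0.0478) and Nid2 not (0.0522), and 4872 genes were higher and 2907 lower over the whole table. Under the block the number of receptor genes that fell went from 2 to 1 and that of fibroblast markers that rose from 1 to 0.

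List counts that moved by more than 1.5 times included those given with the lists and the following. With a filter of 5 FPKM, fewer genes are tested, and 4 proteolysis genes (9 before), 1 endoderm marker (5 before) and 0 fibroblast markers (1 before) rose, and 2 other components fell (4 before). With no filter 8 endoderm markers, 2 fibroblast markers and 2 other laminin and collagen chains rose (0 before). With equal FPKM sums or without the 20 most abundant genes 1 such chain, 5 other components (3 before) and 4 glycosylation genes (2 before) rose and 1 receptor gene fell. With median-ratio or upper-quartile scaling 1 glycosylation gene and 2 proteolysis genes fell (0 and 1 before), and 5 collagen folding genes (8 before) and 0 fibroblast markers rose, the last also with a pseudocount of 0.1. Without knockout replicate 2, 1 glycosylation gene and 3 endoderm markers rose. Fragments are enough that depth limits none of the 10 genes, the lowest resting on about 600.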
